A study of Mus musculus with 24 samples.

Results

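Small RNA in extracellular vesicles (EVs) released by LPS-treated BV2 cells was compared with that in EVs from IL-10-treated BV2 cells. These are 6 of the 24 libraries of the study, taken as the 3 LPS columns and the 3 IL-10 columns of the deposited EV tables joined by precursor name. BV2 is an immortalised mouse microglial line, so every group derives from 1 line. The LPS group received lipopolysaccharide, a bacterial ligand of Toll-like receptor 4, at 100 ng/mL for 72 h, and the IL-10 group received interleukin-10, an anti-inflammatory cytokine, at 50 ng/mL for 72 h. Untreated EVs and EVs after TGF-β at 50 ng/mL for 72 h (3 libraries each) served to estimate the spread between EV libraries and are shown for reference. Cells of the same 4 treatments (3 libraries each) were fitted apart for the same contrast, and with the EVs only to compare EVs with cells. Nothing in the labels ties the libraries to separate cultures, so p-values measure the spread between these libraries only, which may be technical. EV numbers, isolation and purity are not described in the sources used here.

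MicroRNAs are cut from hairpin precursors into mature strands, and bases 2 to 8 of the mature strand, the seed, pair with target messages. Cells release a part of their small RNA in EVs, and this part need not mirror the pool inside the cell. In myeloid cells, signalling from Toll-like receptor 4 through NF-kB raises mir-155, mir-146a and mir-146b, and the mir-146 pair acts back on that pathway by targeting its adaptors, while IL-10 acts through STAT3 and restrains inflammatory genes. The deposited tables count reads per precursor and do not separate the mature strands.

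The mature strands below belong to the precursors on which the comparison turns, and are printed because several are unusual in base composition or are shared between counted precursors. They come from RefSeq (GRCm38.p6), run 5′ to 3′, and have the seed in capitals. The first 4 belong to 3 of the 4 precursors that were higher in LPS EVs.
miR-2137: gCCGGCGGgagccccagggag
miR-5126: gCGGGCGGggccgggggcgggg
miR-664-5p: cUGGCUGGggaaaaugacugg
miR-664-3p: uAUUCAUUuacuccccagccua
The next 4 belong to precursors that were lower in LPS EVs, and miR-692 is encoded by 3 counted precursors.
miR-6236: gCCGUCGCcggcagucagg
miR-6240: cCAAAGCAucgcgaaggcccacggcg
miR-682: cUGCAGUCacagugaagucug
miR-692: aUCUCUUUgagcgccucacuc
The last 5 belong to precursors with no call in EVs that are described because of their abundance, their small p in EVs or their difference in cells.
miR-6238: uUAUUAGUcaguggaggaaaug
miR-29a-3p: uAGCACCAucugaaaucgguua
let-7f-5p: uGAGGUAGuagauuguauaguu
miR-146a-5p: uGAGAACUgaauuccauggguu
miR-146b-5p: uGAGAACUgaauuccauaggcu
Both mir-146 strands carry the seed GAGAACU, and the let-7 strands of 10 tested precursors share the seed GAGGUAG. Of the 71 precursors tested in EVs, 64 had a mature sequence in that table. Every base of miR-5126 is G or C, and 85.7% of miR-2137 is, while miR-664-5p and miR-664-3p hold 57.1% and 40.9%. The lower miR-6236 and miR-6240 hold 78.9% and 69.2%, and the median was 47.6% over the 104 mature strands of tested precursors.

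The 3 LPS EV libraries held 23943, 28727 and 25867 counts, and the 3 IL-10 EV libraries held 17724, 15402 and 15592. At this depth 3 counts correspond to 0.0104% to 0.0195% of a library, whereas the 12 cell libraries held 185400 to 409969 counts. All values are relative to the counts of a library, so fewer vesicles and less RNA per vesicle cannot be told apart. A single precursor, mir-6236, took 49.9% to 65.5% of the counts in LPS EVs and 61.2% to 79.5% in IL-10 EVs. The IL-10 library numbered 1 stood apart from the other 2 of its group. Its let-7 family share was 9.33%, against 2.53% and 2.81% in the others, and its mir-692 share was 7.48%, against 1.95% and 0.962%. Normalisation factors (TMM, which centre most precursors on no change) were 1.52 to 2.28 in LPS EVs and 1.50, 0.675 and 0.543 in IL-10 EVs, so the choice of scaling moves every fold change in this comparison. Myeloid markers were present in both groups of EVs, at 0.388% to 0.854% of an LPS library and 0.181% to 0.221% of an IL-10 library over the 10 listed precursors in the tables. Among them mir-223 and mir-511 were at 0 in all 6 libraries.

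**Figure D1:**
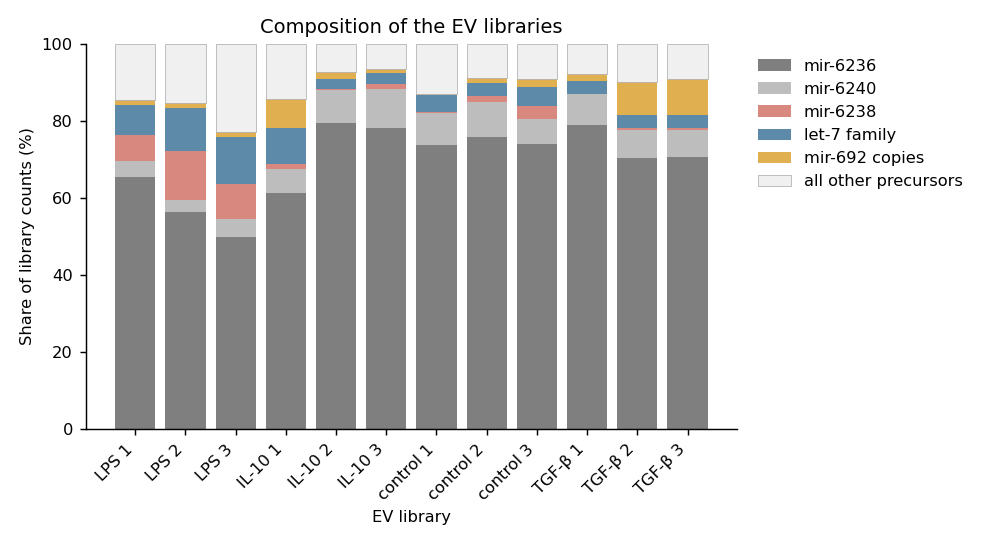
Stacked bars give the share of library counts (%, vertical axis) taken by named precursors in each of the 12 EV libraries (horizontal axis, grouped by treatment). The mir-6236 segment spans 49.9% to 65.5% in LPS EVs, and the mir-6238 segment is widest in the 3 LPS libraries, at 6.65% to 12.8%.

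LPS and IL-10 EVs differed in 17 of the 71 precursors with enough counts to test, or 23.9% of them. Of these 4 were higher in LPS EVs (5.63% of those tested) and 13 were lower (18.3%). The 4 higher precursors were mir-2137, mir-5126, mir-664 and mir-320. The 13 lower ones were mir-6240, mir-6236, mir-682, the 3 copies of mir-692, mir-5108, mir-1a-1, mir-203, mir-6345, mir-3544, mir-1931 and mir-1896. A precursor was called when its Benjamini-Hochberg adjusted p from edgeR's two-sided quasi-likelihood test was under 0.05, and 26 had an unadjusted p below that value. Filtering let 21 precursors through that would not have passed without the LPS libraries, of which mir-320 was called, and 8 that would not have passed without the IL-10 libraries, of which mir-1931 and mir-1a-1 were called. Between the groups of 3, 26 of the 71 precursors (36.6%) did not overlap on normalised CPM, and 31 (43.7%) did not overlap as a share of all counts. Normalised CPM are counts per sum over the tested precursors of a library, adjusted by the TMM factor.

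How the calls split by direction depended on the scaling. With library totals in place of TMM factors, 13 precursors were higher (18.3%) and 2 lower (2.82%), as the median log2 difference of all tested precursors moved from -0.05 to 1.06. With DESeq2's median-ratio factors 18 were called (25.4%), 5 higher (7.04%) and 13 lower (18.3%). Calls under all 3 scalings covered 6 precursors: mir-2137, mir-5126, mir-664 and mir-320 higher, and mir-6240 and mir-6236 lower. The number of calls depended on single libraries. Without LPS library 2 only mir-2137 was called (22 of the 88 precursors tested had an unadjusted edgeR p under 0.05). Without LPS library 3 the count was 4, and without IL-10 library 2 it was 5, against 13 to 17 without each of the other 3. In the fit without LPS library 2 the log2 difference was 3.79 for mir-5126, 3.56 for mir-664 and 3.29 for mir-320 (3.86, 3.58 and 3.53 with all libraries). For mir-6240 it was -2.19 and for mir-6236 -1.54 (-2.40 and -1.65 with all libraries). These calls were thus lost with shifts in the estimate smaller than its SE.

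**Figure D2:**
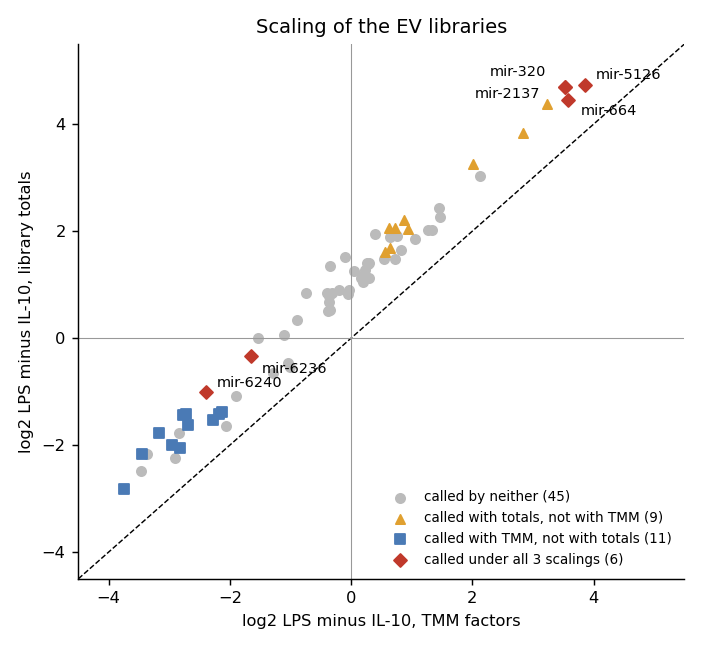
Each point is 1 of the 71 tested precursors, with its log2 difference (LPS minus IL-10 in EVs) under TMM factors on the horizontal axis and under library totals on the vertical axis. The dashed line marks equal values, and the points lie above it, with the median at -0.05 under TMM and at 1.06 under library totals.

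Among precursors higher in LPS EVs, mir-2137 had 348, 783 and 704 counts in LPS EVs and 21, 14 and 9 in IL-10 EVs. Every LPS library exceeded every IL-10 library, and the untreated EVs (49, 19 and 25) and TGF-β EVs (22, 11 and 14) also lay below all LPS libraries. As a share of counts it was 2.30% ± 0.733 in LPS EVs and 0.0890% ± 0.0304 in IL-10 EVs (SD, n = 3 each). The difference was 3.53 ± 0.46 on the log2 scale (SE), or 11.6-fold, with an edgeR adjusted p of 0.000286. Under library totals the log2 difference was 4.69, and it was likewise larger than the TMM value given below for mir-5126 (4.74), mir-664 (4.44) and mir-320 (4.69). The mir-2137 difference was called without each of the 6 libraries in turn and in all 16 alternative analyses, with adjusted p up to 0.0084. In GENCODE's GRCm38 annotation Mir2137 lies at chrX:72992079-72992144 on the plus strand, in an intron of Zfp185. The deposited tables carry no coordinates or genome build, so positions here are those of the annotation.

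The G- and C-only mir-5126 had 179, 353 and 277 counts in LPS EVs and 15, 0 and 4 in IL-10 EVs. Again the groups did not overlap, and IL-10 library 2 had none (3 counts there would be 0.0195%). Its share was 1.02% ± 0.245 against 0.0368% ± 0.0434 (SD, n = 3 each), and the log2 difference of 3.86 ± 0.87 had an edgeR adjusted p of 0.0127, rising to 0.0636 without LPS library 2. Mir5126 lies at chr1:84695839-84695915 on the plus strand, opposite an exon of Dner.

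The third, mir-664, had 398, 590 and 385 counts in LPS EVs and 29, 4 and 7 in IL-10 EVs. It made up 1.74% ± 0.290 and 0.0782% ± 0.0746 of the counts (SD, n = 3 each), with no overlap. The log2 difference was 3.58 ± 0.89 (edgeR adjusted p = 0.0134), and the adjusted p was 0.0636 without LPS library 2 and 0.0571 without IL-10 library 2. Mir664 (chr1:185242975-185243043, plus strand) lies within the snoRNA gene Snora36b, in an intron of Rab3gap2, so reads of the snoRNA and of the microRNA precursor cannot be told apart in these counts.

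A precursor often reported in vesicles, mir-320, had 32, 97 and 94 counts in LPS EVs against 2, 2 and 1 in IL-10 EVs. Untreated EVs (0, 0 and 2) and TGF-β EVs (2, 1 and 0) were as low as IL-10 EVs. The log2 difference was 3.53 ± 0.97 (edgeR adjusted p = 0.0192), the least stable of the 4: it stayed under 0.05 only without LPS library 1, and was 0.0712 to 0.115 without each of the other 5. Mir320 is annotated at chr14:70443510-70443591 on the plus strand and overlaps no other gene there.

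**Figure D3:**
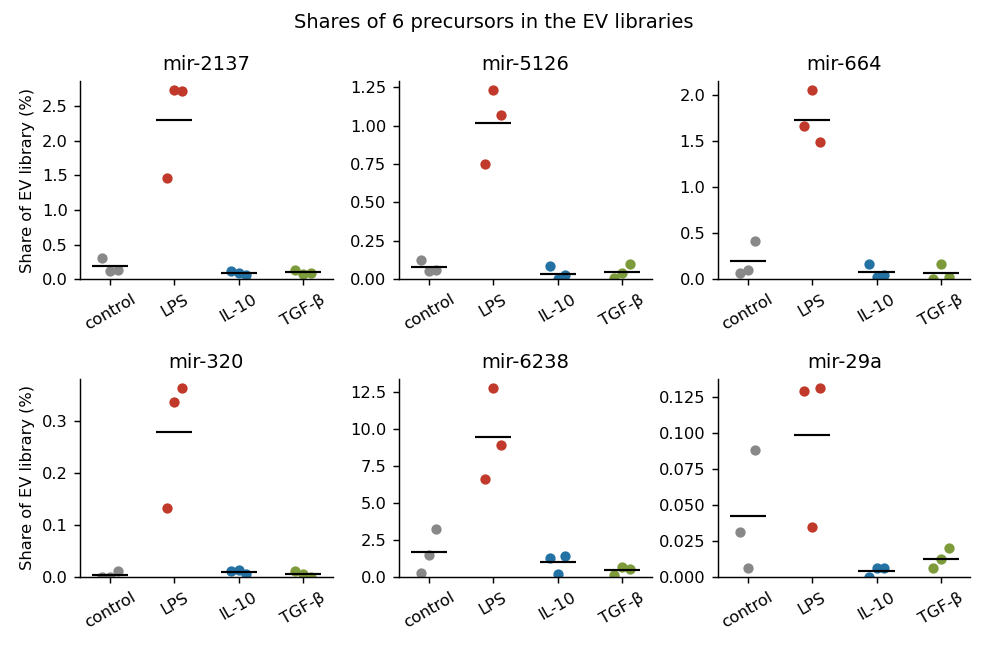
Points give the share of library counts (%) of 6 precursors in each EV library, by treatment, and black lines give group means (n = 3). For mir-2137, mir-5126, mir-664 and mir-320 the 3 LPS points lie above all 9 other EV libraries, with means of 2.30%, 1.02%, 1.74% and 0.278%.

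Of the next precursors by p in that direction, none was called under TMM, and all were called with library totals. The most abundant, mir-6238, had 1592, 3676 and 2317 counts in LPS EVs and 232, 34 and 223 in IL-10 EVs. It took 6.65% to 12.8% of LPS libraries and 0.221% to 1.43% of IL-10 libraries, without overlap (exact two-sided permutation p = 0.1, the smallest that 3 against 3 allows). Its edgeR log2 difference was 2.00 ± 0.85 with an adjusted p of 0.104 under TMM, and 3.27 with 0.0233 under library totals. The scaRNA-hosted mir-1843b, inside Scarna3a in an intron of Cop1, had 63, 68 and 203 counts against 11, 1 and 3, a log2 difference of 2.83 ± 1.04 (edgeR adjusted p = 0.0624).

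For mir-29a, which targets collagen and other matrix messages in many tissues, counts were 31, 10 and 34 in LPS EVs and 0, 1 and 1 in IL-10 EVs. The summed counts give a ratio of shares of 23.3, with an exact binomial 95% interval of 6.22 to 195.6 that covers counting error only. In the edgeR fit the log2 difference was 3.23 ± 1.22, with an adjusted p of 0.0664. Without the LPS libraries, where it was higher, mir-29a would not have passed the filter, so its inclusion favoured this direction. The pair let-7f-1 and let-7f-2 encode the same mature strand, so their counts are not independent. For let-7f-2 counts were 236, 378 and 384 against 119, 38 and 41, and the log2 difference was 0.64 ± 0.30 (edgeR adjusted p = 0.136). For mir-677 counts were 64, 54 and 108 against 18, 11 and 6, with a log2 difference of 0.94 ± 0.52 (edgeR adjusted p = 0.232).

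The precursors lower in LPS EVs were led by mir-6240, the second most abundant in these EVs. It had 1016, 936 and 1205 counts in LPS EVs and 1112, 1330 and 1550 in IL-10 EVs, or 4.05% ± 0.719 and 8.28% ± 1.86 of all counts (SD, n = 3 each). The shares did not overlap. Its log2 difference was -2.40 ± 0.48 under TMM (edgeR adjusted p = 0.0106) and -1.01 under library totals (0.0226), and the adjusted p was 0.0636 without LPS library 2 and 0.0565 without LPS library 3. The most abundant of all, mir-6236, had shares of 57.2% ± 7.82 and 73.0% ± 10.2 (SD, n = 3 each), and here the groups overlapped. The log2 difference of mir-6236 was -1.65 ± 0.50 under TMM (edgeR adjusted p = 0.0271) and -0.34 under library totals (0.0495), and the call was lost without LPS library 2 or 3 or IL-10 library 2 or 3 (adjusted p 0.104 to 0.169). Both were put on a list of precursors that overlap rRNA, tRNA or snoRNA, although the annotation used here places no other gene over either.

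With 65, 39 and 33 counts in LPS EVs and 266, 64 and 47 in IL-10 EVs, mir-682 had a log2 difference of -2.83 ± 0.61 (edgeR adjusted p = 0.0126 under TMM, 0.0779 under library totals). The groups did not overlap in normalised CPM. As a mean share of counts it was 0.178% in LPS EVs and 0.739% in IL-10 EVs, beside 0.195% in untreated and 0.758% in TGF-β EVs. By share LPS EVs were thus near untreated EVs, while the mean normalised CPM was 1062 in LPS and 2246 in untreated EVs. Mir682 lies at chr13:75645046-75645141 inside the processed pseudogene Gm4149. Without LPS library 2 or 3 its adjusted p was 0.0658 and 0.0642.

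All 3 mir-692 precursors were called together, as the same mature strand is assigned to each and reads may have been split among them. The middle of the 3 by abundance, mir-692-2, had 120, 128 and 102 counts in LPS EVs and 455, 106 and 52 in IL-10 EVs. Its raw counts in LPS EVs thus fell inside the IL-10 range, and IL-10 library 1 was far above the rest, while normalised CPM did not overlap. The mean share of the 3 copies together was 1.29% in LPS, 3.46% in IL-10, 1.11% in untreated and 6.50% in TGF-β EVs. For mir-692-2 the mean normalised CPM was 2563 in LPS and 4672 in untreated EVs. The log2 differences of the copies were -2.28, -2.18 and -2.13 (edgeR adjusted p = 0.0232, 0.0303 and 0.0312), and for mir-692-2 the difference was -1.65 with an adjusted p of 0.164 without IL-10 library 1. In the annotation Mir692-2 lies in the processed pseudogene Ftl2-ps and Mir692-3 in Ftl1-ps1, both named after the ferritin light chain.

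Most of the other lower precursors had few counts. Muscle-restricted mir-1a-1 had 5, 5 and 4 counts in LPS EVs and 13, 10 and 5 in IL-10 EVs. Epithelial mir-203 had 12, 2 and 15 against 49, 20 and 9. These are the 2 tested of the 15 listed markers of muscle and epithelium, and both were lower, by log2 -2.70 and -2.95 (edgeR adjusted p = 0.0134 and 0.0242), beside 18.3% lower over all tested precursors. Of these mir-1a-1 would not have passed the filter without the IL-10 libraries. That list summed to 0.0453% to 0.0812% of LPS libraries and 0.0898% to 0.406% of IL-10 libraries, with 8 of its members, among them mir-133a-1, mir-133b and mir-200a, at 0 in all 6; the part of RNA from other cell types in the differences was not tested. For mir-1931, in an intron of Cdk17, counts were 2, 5 and 1 against 21, 13 and 3. For mir-1896 they were 180, 29 and 104 against 132, 215 and 196. The calls of mir-5108, mir-6345 and mir-3544 rested on 1 to 17 counts per LPS library and 4 to 26 per IL-10 library. None of these 7 was called under library totals (adjusted p 0.0779 to 0.13), and each lost its call without LPS library 2 (without it, edgeR called none of the 13 lower).

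None of the other abundant precursors was called. The let-7 family, whose strands restrain growth genes, took 7.68% to 12.4% of LPS EV counts and 2.53% to 9.33% of IL-10 EV counts. The groups overlapped through IL-10 library 1 (exact two-sided permutation p = 0.2). None of the 10 tested let-7 precursors was called. Their median log2 difference was 0.19, beside -0.05 over all tested precursors. In the fit let-7a-1, with 401, 737 and 664 counts against 346, 90 and 91, had a log2 difference of 0.16 ± 0.26 (edgeR adjusted p = 0.712). For mir-5099, with 199, 189 and 391 counts against 174, 142 and 79, it was -0.89 ± 0.38 (0.104) under TMM and 0.33 under library totals.

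The other lists stand beside the 23.9% called over all tested precursors (5.63% higher and 18.3% lower). Among 8 tested precursors often reported as vesicle cargo (let-7a-1, let-7b, mir-21a, mir-25, mir-146a, mir-191, mir-320 and mir-423) 1 was called, mir-320. Of the 5 tested on the rRNA, tRNA or snoRNA list 3 were called, mir-664 higher and mir-6236 and mir-6240 lower, while mir-1983 and mir-1839 were not. From the growth-promoting miR-17-92 cluster and related clusters 4 were tested (mir-19b-1, mir-19b-2, mir-93 and mir-25), which had log2 differences of 0.73 to 1.47 with none called. Of these mir-19b-1, mir-19b-2 and mir-93 would not have passed the filter without the LPS libraries, which favours positive values. The log2 differences of the miR-23/27/24 clusters (mir-23a, mir-23b, mir-24-1 and mir-24-2) ran from -0.05 to 0.29, again with none called. The same held for let-7c-1 and let-7c-2 on the list of IL-10 or alternative activation (-0.35 and -0.39). From the Sfmbt2 cluster, a large rodent cluster of repeated hairpins, mir-669c alone was tested, and it was not called. No member of the miR-15/16, miR-30, miR-181 or miR-125 and miR-99 lists, or of the markers of neurons and glia or of red cells, serum, endothelium and liver, had enough counts. The summed neural markers reached at most 0.0313% of an LPS library and 0.0513% of an IL-10 library. Those of red cells, serum, endothelium and liver reached 0.0155% and 0.164%, the latter in IL-10 library 1, where the red cell marker mir-144 had 25 counts, against 0 in the other IL-10 libraries and 1, 0 and 0 in LPS EVs.

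Of the precursors that respond to inflammatory signals, mir-146a was far higher after LPS in cells and was not called in EVs, and the difference between these contrasts was itself called. The feedback regulator mir-146a had 14, 103 and 85 counts in LPS EVs and 1, 24 and 16 in IL-10 EVs. LPS library 1 lay below 2 of the 3 IL-10 libraries, and the log2 difference was -0.09 ± 1.26 (edgeR adjusted p = 0.955), with a sign that turned under library totals (1.53, adjusted p = 0.298). In cells mir-146a had 10338, 7072 and 8703 counts after LPS and 540, 416 and 633 after IL-10. There the log2 difference was 4.98 ± 0.17 (edgeR adjusted p = 1.58e-16). Its relative mir-146b had 3, 58 and 44 counts against 0, 8 and 16 in EVs (log2 -0.35 ± 1.41, edgeR adjusted p = 0.854 under TMM, and 1.34 under library totals). In cells its log2 difference was 3.82 ± 0.16 (edgeR adjusted p = 6.42e-15).

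Among the other precursors named for this comparison, most had too few EV counts to test, while mir-21a and mir-142a were tested and not called. For mir-155, raised by Toll-like receptors, EV counts were 0, 1 and 2 after LPS and 0 in all IL-10 libraries, at or under the floor of 3 counts, while cells had 79, 60 and 57 against 10, 9 and 18 (log2 3.33 ± 0.28, edgeR adjusted p = 2.22e-09). The broadly expressed mir-21a had 30, 13 and 54 counts against 17, 1 and 5 in EVs (log2 0.55 ± 0.83, edgeR adjusted p = 0.707), and would not have passed the filter without the LPS libraries. Myeloid-rich mir-142a had 47, 30 and 76 against 10, 8 and 8 (0.65 ± 0.66, 0.561). Too low to test were mir-222 (11, 10 and 16 against 15, 1 and 3), mir-221 (6, 5 and 17 against 1, 3 and 1) and the hypoxia-induced mir-210 (3, 12 and 16 against 17, 0 and 0). For mir-132 the counts were 0, 0 and 0 against 0, 0 and 3, and for mir-342 they were 2, 0 and 1 against 0 in all 3.

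**Figure D4:**
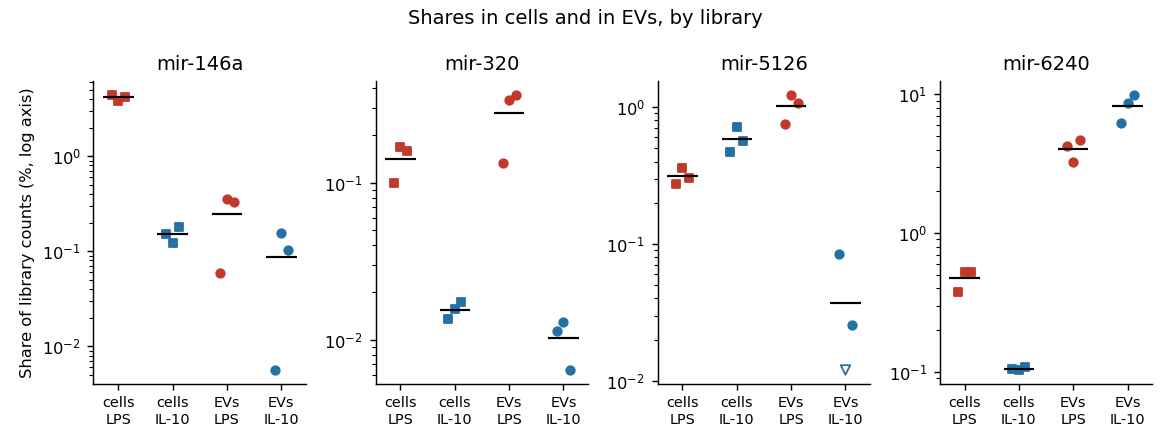
Points give the share of library counts (%, log axis) of 4 precursors in each LPS library (red) and IL-10 library (blue) of cells (squares) and EVs (circles), and black lines give means (n = 3). The open triangle in the mir-5126 panel marks an IL-10 EV library with 0 counts and has no value on the axis. The mir-146a groups lie apart in cells and overlap in EVs, and mir-6240 is higher after LPS in cells and lower after LPS in EVs.

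The same contrast in cells separated more precursors. There 115 of 259 tested were called (44.4%), 53 higher after LPS (20.5%) and 62 lower (23.9%). Of the 17 precursors called in EVs 10 were tested in cells, and all 10 were called there too; among the 58 tested in both, 41 were called in cells. Only mir-2137, mir-664 and mir-320 had the same direction in both, and the other 7 were opposite. Of these 7, mir-5126, mir-6240 and mir-6236 were called under all 3 scalings in both EVs and cells. The rest, mir-682 and the mir-692 copies that share a mature strand, were not called in EVs under library totals. In cells mir-2137 had 3011, 3936 and 3672 counts against 3162, 2361 and 1940 (log2 1.47 ± 0.18), mir-664 a log2 difference of 1.09 ± 0.16, and mir-320 had 234, 311 and 328 counts against 48, 53 and 61 (3.38 ± 0.19), with edgeR adjusted p of 4.63e-07, 1.3e-05 and 1.12e-12. The reverse held for mir-5126, with 638, 663 and 625 counts after LPS and 1649, 2421 and 1989 after IL-10 in cells (log2 -0.73 ± 0.18, edgeR adjusted p = 0.00254). For mir-6240, with 878, 972 and 1090 counts against 368, 351 and 377 in cells, the log2 difference was 2.37 ± 0.15, and for mir-6236 it was 1.47 ± 0.15 (edgeR adjusted p = 5.2e-12 and 5.44e-08). None of the 7 EV calls not tested in cells, among them mir-1896, mir-203 and mir-1a-1, reached more than 10 counts in an LPS or IL-10 cell library.

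The difference between the EV and the cell contrast was tested directly in 1 fit over the 24 libraries. That fit gives each precursor 1 spread for both compartments, although EV libraries varied more than cell libraries. The coefficient of variation common to all precursors was 0.611 in the EV fit, 0.134 in the cell fit and 0.276 in this fit. For mir-5126 the SE was 0.75 here and 0.87 in the EV fit alone, so p-values of this test may be too small. Of 280 precursors 23 (8.21%) differed, 10 with a more positive LPS minus IL-10 value in EVs (3.57%) and 13 with a more negative one (4.64%). This split too followed the scaling, with 2 higher (0.714%) and 28 lower (10.0%) under median-ratio factors, 30 or 10.7% in all, and 40 higher (14.3%) and 8 lower (2.86%) under library totals, 48 or 17.1% in all. The 10 called under all 3 scalings were mir-5126, mir-2137, mir-146a, mir-6240, mir-6236, mir-682, mir-1931, mir-1983, mir-32 and mir-6546. For mir-5126 the EV minus cell difference was 4.95 ± 0.75 (edgeR adjusted p = 7.94e-05) and for mir-2137 it was 2.55 ± 0.59 (0.00674), and both were called without each of the 12 libraries in turn. For mir-6240 it was -4.33 ± 0.49 (edgeR adjusted p = 1.01e-06), and for mir-146a -4.31 ± 1.06 (0.0118, or 0.0783 without IL-10 EV library 2). The value for mir-320 was 0.74 ± 0.89 (edgeR adjusted p = 0.616), which does not show that its contrasts are alike. The value for mir-1983 rested on IL-10 EV library 1, which had 83 counts against 3 and 1 in the other 2; it was -3.89 with that library and -0.73 (edgeR adjusted p = 0.758) without it.

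**Figure D5:**
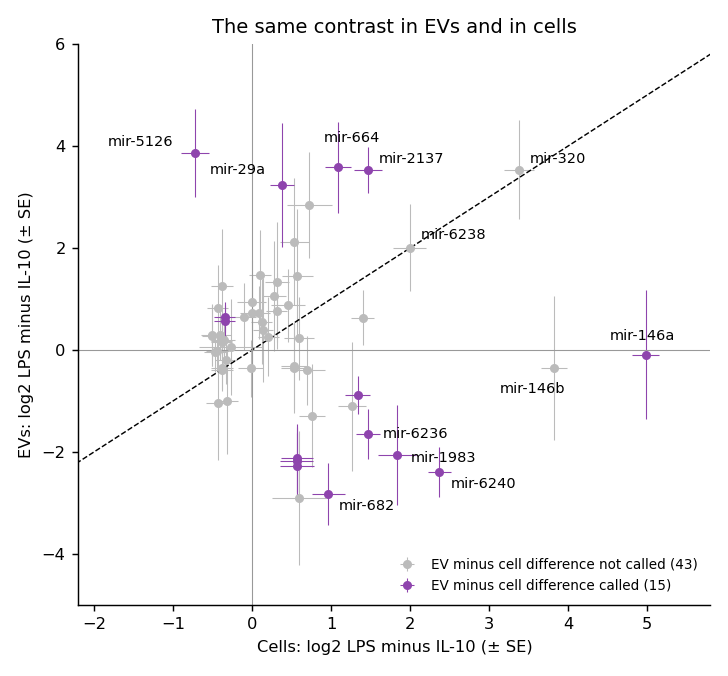
Points are the 58 precursors tested in both compartments, with the log2 difference (LPS minus IL-10, ± SE) in cells on the horizontal axis and in EVs on the vertical axis. The dashed line marks equal values, purple marks precursors whose EV minus cell difference was called, and mir-146a lies at 4.98 in cells and -0.09 in EVs.

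A number of low precursors appeared in 1 group of EVs. Counts in all 3 LPS libraries and in no IL-10 library were found for 15 precursors, with 6 to 67 counts in sum, from group totals of 78537 and 48718 counts. One precursor, mir-6949, had the reverse (2, 1 and 1 counts in IL-10 EVs). The highest of the 15 was mir-7033, with 9, 37 and 21 counts in LPS EVs. Against a floor of 3 counts over the IL-10 group it was at least 13.9-fold higher by share of counts. In cells it was also higher after LPS (25, 37 and 58 counts against 3, 6 and 1, log2 4.47 ± 0.48, edgeR adjusted p = 6.96e-08). The next by counts were mir-669a-4 (3, 5 and 23), mir-34a, a p53 target (10, 4 and 8), mir-669d (16, 4 and 1) and mir-7650 (2, 8 and 10). Of the 15, 6 were placed in the Sfmbt2 cluster by name and not by position. Hairpins of that cluster are near-identical and may share reads. Precursors placed there by name also make up 67 of the 554 with a count in these 6 libraries. The rest were mir-8101, mir-6948, mir-33, mir-301b, mir-106b and mir-378d, and among those placed in the cluster mir-669f, mir-669d-2, mir-669a-8 and mir-467h. As LPS libraries were deeper, 0 counts in the IL-10 libraries do not show absence.

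With all precursors counted, the groups overlapped in the number detected. Drawn to a common depth of 15071 counts, LPS EV libraries held 242.8 ± 25.5 precursors and IL-10 EV libraries 210.3 ± 38.2 (SD, n = 3 each, exact two-sided permutation p = 0.3). When mir-6236 and mir-6240 were left out and the depth set to 1825 counts, the order turned and the groups lay apart, at 159.4 ± 19.2 and 184.9 ± 11.6 (exact two-sided permutation p = 0.1, the smallest that 3 against 3 allows).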

How the data were processed

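The deposited tables hold raw read counts per microRNA precursor, which the authors did not normalise. RNA came from miRNeasy kits and libraries from the SMARTer smRNA-seq kit, per the labels' protocols. The submitters' processing notes name DESeq2. No aligner, annotation or build is given in the sources used here. Among 8 deposited files, 6 were analysed and 2 repeated another. The tables list 1187 precursors, of which 554 had a count in the 6 EV libraries. Columns name the group, and their numbers are those of the columns. The members and lists were chosen with earlier results of these data known.

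EdgeR 4.0.16 (R 4.3.3) was run on the counts with TMM factors, filterByExpr (minimum count 10) and the quasi-likelihood test, in 1 fit over the 12 EV libraries, 1 over the 12 cell libraries (8 residual degrees of freedom each) and 1 over all 24 (16). P-values were adjusted over all precursors tested, and an adjusted p under 0.05 was called. SE values derive from the F statistic. Normalised CPM divides counts by the library's sum over the tested precursors times the TMM factor. Fits with library totals used that sum without a factor, while shares used all counts. Shares were compared with exact permutation tests. The precursors named are the calls, the 10 smallest p in a direction with fewer calls, the 10 most abundant, list members, a fixed panel, those in 1 group only, and the 5 smallest interaction p per direction. Others named with the 3 scalings were chosen after their values were seen. Intervals and floors (3 counts) cover counting error only. The procedure was tested on simulated data. Alternatives were other scalings, filters and tests (DESeq2 1.42.0, limma 3.58.1), libraries left out, the 6 libraries alone and the column number as a block.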

Additional observations from a re-analysis of the deposited data

Results flagged for a closer look

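Over all 280 precursors tested in edgeR over the 24 libraries, 23 (8.21%) were called for the EV minus cell difference. This test uses 1 spread per precursor for EVs and cells, though EV libraries varied more, so its p-values may be too small. Precursors were described in part for being among the 5 smallest p of this test in each direction, so a count among them follows partly from that choice. The LPS minus IL-10 difference was unlike in EVs and in cells, by that test, for 17 of the precursors described. It was more positive in EVs for mir-5126 (4.95 on the log2 scale, EVs minus cells), mir-29a (3.50), mir-664 (2.90), mir-532 (2.85), mir-2137 (2.55), let-7f-2 (1.45) and let-7f-1 (1.38). It was more negative in EVs for mir-1931 (-5.58), mir-6240 (-4.33), mir-146a (-4.31), mir-1983 (-3.89), mir-682 (-3.44), mir-6236 (-2.64), mir-692-1 (-2.49), mir-692-2 (-2.31), mir-692-3 (-2.26) and mir-5099 (-1.83). Of these mir-5126, mir-2137, mir-1931, mir-6240, mir-146a, mir-1983, mir-682 and mir-6236 were called under all 3 scalings. The median of this difference over all 280 precursors was 0.42 under TMM, -0.20 under median-ratio factors and 1.19 under library totals, so the calls of mir-29a, mir-664, mir-532, the let-7f pair, the mir-692 copies and mir-5099 depended on that choice. When each of the 12 LPS and IL-10 libraries was left out in turn, mir-5126, mir-2137, mir-6240, mir-6236, mir-682 and mir-1931 were called in all 12 fits and mir-146a and mir-1983 in 11. The others were called less often: mir-5099 in 10, mir-29a, mir-532 and mir-692-1 in 6, let-7f-2 in 4, mir-664, mir-692-2 and mir-692-3 in 3, and let-7f-1 in 2. Without IL-10 EV library 1 the value of mir-1983 was -0.73, and without IL-10 EV library 2 that of mir-146a was -3.33 (edgeR adjusted p = 0.758 and 0.0783). For mir-532 EV counts were 6, 9 and 10 after LPS and 1, 1 and 0 after IL-10. The counts of mir-1931 were low in both compartments. It had 2, 5 and 1 against 21, 13 and 3 in EVs, where its call held in 2 of 6 fits with 1 library left out. In cells it had 8, 10 and 6 against 4, 1 and 5, too few for the cell fit. The precursors with the same mature strand (let-7f pair, mir-692 copies) are not separate results.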

How the results depend on the processing

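Depth limits the EV comparison: 15402 to 28727 counts a library left 71 of 1187 precursors testable, and mir-6236 took most of them. The mir-2137 call held in all 16 alternatives. Calls in EVs (17, as 4 higher and 13 lower) came to 13 and 2 under library totals, 11 (6 and 5) without a filter, 9 and 16 with DESeq2, and 7 and 7 without mir-6236 and mir-6240, and ranged from 1 to 17 when 1 library was left out (1 to 4 higher, 0 to 13 lower; those fits tested 85 to 93 precursors). In cells 35 were higher under library totals, and leaving out 1 library gave 34 to 52 lower. Calls for EVs minus cells (23, as 10 and 13) came to 30 (2 and 28) with median-ratio factors, 48 (40 and 8) with library totals, 36 (29 lower) without a filter, 50 (42 lower) with DESeq2 and 4 and 22 without mir-6236 and mir-6240, and ranged from 11 to 25 when 1 library was left out (2 to 14 higher, 7 to 19 lower), lowest without LPS cell library 1. Of counts other than mir-6236 and mir-6240, the LPS minus IL-10 share was 2.15 percentage points for let-7, 18.4 for mir-6238 and -12.4 for mir-692. As a share of all counts the mir-692 value was -2.17, and -0.166 without IL-10 EV library 1. Detected precursors differed by 69 without a common depth and by -25.5 without those 2. The EV value of mir-146a (-0.09) turned to 0.068 with median-ratio factors, 1.53 with library totals, 0.68 without a filter, 0.033 with DESeq2, 0.27 without mir-6236 and mir-6240 and 0.93 with limma-voom, and ranged from -0.68 to 0.60 when 1 library was left out. That of mir-146b (-0.35) turned to 1.34 with library totals, 0.38 without a filter, 0.03 without mir-6236 and mir-6240 and 0.80 with limma-voom, with -0.98 to 0.72 when 1 library was left out. That of mir-5099 turned to 0.33 with library totals. The cause was not tested. The labels do not say whether equal column numbers mark paired libraries, so the numbers were not treated as pairs. Same-numbered LPS and IL-10 EV libraries deviated together with r = 0.20, -0.02 and 0.17, and differently numbered ones with r from -0.24 to 0.12. So few values cannot decide whether the libraries are paired. With the number as a replicate block 18 precursors were called in EVs (16 shared), 111 in cells and 20 for EVs minus cells.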
